A study of Mus musculus with 4 samples.

Results

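The cells described here are regulatory T cells (Treg cells) of the mouse thymus by label, and each carried at least 1 UMI (unique molecular identifier, 1 captured transcript) of Foxp3 and at least 1 of Il2ra. They were chosen by the detection of both transcripts and numbered 318 of the 27310 cell barcodes that had at least 2000 UMIs, at least 500 genes and at most 10% mitochondrial UMIs. Levels of the 2 genes are therefore given only as a description. The cells are called Foxp3+Il2ra+ cells or members, and the remaining 26992 barcodes are called other cells.

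Treg cells restrain immune responses and are made in the thymus from CD4 T cells whose receptor recognises self-antigen strongly. FOXP3 is the transcription factor that defines them, and Il2ra encodes CD25, the high-affinity chain of the IL-2 receptor, through which IL-2 activates STAT5 and sustains Foxp3. In the thymus, cells with both molecules are the Treg cells proper, while cells with only CD25 or only FOXP3 include their precursors. A further population of CCR6-bearing Treg cells returns to the thymus from the periphery.

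Thymocytes were sorted for CCR7 and are labelled as CD4+CCR7+ thymus cells of mice; CCR7 is the chemokine receptor that brings maturing thymocytes into the medulla. The first genotype, Cd4Cre Cgasfl/fl, is called Cgas KO here: its floxed alleles of Cgas, the gene of the cytosolic DNA sensor cGAS, are deleted by a Cre recombinase under Cd4 control, which acts in the T lineage once thymocytes carry CD4 and CD8 together and leaves Cgas intact in non-T cells. The other genotype, Cd4Cre, is called WT and carries the same Cre without floxed alleles. The sources used here give neither the age and sex of the mice nor how many contributed to a library. Each genotype had 1 droplet 3′ expression library and 1 T cell receptor (TCR) library, so no test between genotypes exists, every ratio compares 2 libraries, and 95% intervals cover counting error only. The series asks how cGAS affects transcription in these cells.

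The 3 CDR3 sequences carried by more than 1 Foxp3+Il2ra+ barcode are shown, because they are where barcodes of this kind shared a receptor chain. Capitals mark the codons between the 4 at the 5′ end and the 4 at the 3′ end, a fixed trim that does not mark the junction of the segments.
Cgas KO alpha chain, TRAV14-2 with TRAJ49: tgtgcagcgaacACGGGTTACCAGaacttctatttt
Cgas KO beta chain, TRBV12-2+TRBV13-2 with TRBJ2-1: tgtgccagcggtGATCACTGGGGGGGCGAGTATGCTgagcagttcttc
WT alpha chain, TRAV4D-4 with TRAJ12: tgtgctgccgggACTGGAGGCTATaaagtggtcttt
The Cgas KO chains formed 1 pair and stood together on 2 Foxp3+Il2ra+ barcodes of 5728 and 4432 UMIs. Those barcodes held 1 Foxp3 UMI each, with 3 and 1 Il2ra UMIs. They make up 1 of the groups of barcodes with the same pair that are described below, and whether they are 2 cells was not tested. The beta sequence of the pair was on 0 other cells, and its alpha sequence was also on 1 other Cgas KO cell and 1 other WT cell. The WT alpha sequence was on 2 WT Foxp3+Il2ra+ cells with different beta chains, and on 3 Cgas KO and 4 WT other cells. No CDR3 besides these was on more than 1 Foxp3+Il2ra+ cell: there were 120 distinct beta sequences in Cgas KO and 193 in WT, and 100 and 170 distinct alpha sequences.

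The Cgas KO library gave 14381 cells with a median of 4507 UMIs and 2023 genes, and the WT library 12929 cells with a median of 4943 UMIs and 2160 genes. Among the kept barcodes 276 sequences occurred in both libraries, 2 of them on Cgas KO and 3 on WT Foxp3+Il2ra+ cells, and 0 of the 276 carried the same CDR3 in both. Within a library, different barcodes could carry the same alpha and beta CDR3 nucleotide pair. This held for 1454 of 12029 Cgas KO barcodes with both chains (12.1%), all in groups of 2 barcodes, and for 55 of 10754 WT barcodes (0.511%). Barcodes of such groups had a median of 3331.5 UMIs in Cgas KO, against 4709 for the rest with both chains, and their sequences differed at 6 to 16 of 16 bases. Of Foxp3+Il2ra+ cells with both chains, 7 of 89 in Cgas KO (7.87%) and 1 of 139 in WT (0.719%) stood in such a group. The 37 Cgas KO and 53 WT Foxp3+Il2ra+ cells without both chains could not be matched in this way. The share of Foxp3+Il2ra+ cells is therefore also given with these barcodes joined and with them left out; the origin of the groups was not tested.

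Foxp3+Il2ra+ cells were less frequent in the Cgas KO library. They made up 126 of 14381 cells (0.876%, exact Clopper-Pearson interval 0.730 to 1.04) in Cgas KO and 192 of 12929 cells (1.49%, 1.28 to 1.71) in WT. The Cgas KO share was 0.590 times the WT share (exact conditional interval 0.467 to 0.742), a gap larger than counting error. With barcodes of 1 TCR pair joined, the shares were 0.915% in Cgas KO and 1.49% in WT (ratio 0.615, 0.487 to 0.775), and with such barcodes left out the ratio was 0.620 (0.489 to 0.784). After each cell was thinned at random to 2000 UMIs, 52 cells (0.362%) in Cgas KO and 68 cells (0.526%) in WT still showed both genes. That ratio was 0.687, and its interval of 0.470 to 1.001 included 1.

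Depth moved with this share in both libraries. Cells were split into 6 ranges of UMIs per cell. In the shallowest range 0.532% of Cgas KO and 0.871% of WT cells were Foxp3+Il2ra+, and in the deepest range 1.72% and 3.23%. In the 6 ranges the Cgas KO share was the lower one each time, with ratios between 0.488 and 0.786. For comparison, cells expected to lack both genes were counted, those with at least 2 Cd8b1 UMIs and no Cd4 UMI. Their median depth was 4258 UMIs in Cgas KO and 4784 in WT. Of these cells, 2 of 1167 in Cgas KO (0.171%) and 3 of 1171 in WT (0.256%) were Foxp3+Il2ra+. Il2ra alone or with Foxp3 was found in 2.06% and 1.88% of them, and Foxp3 alone or with Il2ra in 0.857% and 0.769%. Free RNA, doublets and real transcripts cannot be told apart in these values. Foxp3+Il2ra+ cells themselves had median depths of 5259 and 5696.5 UMIs.

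**Figure D1:**
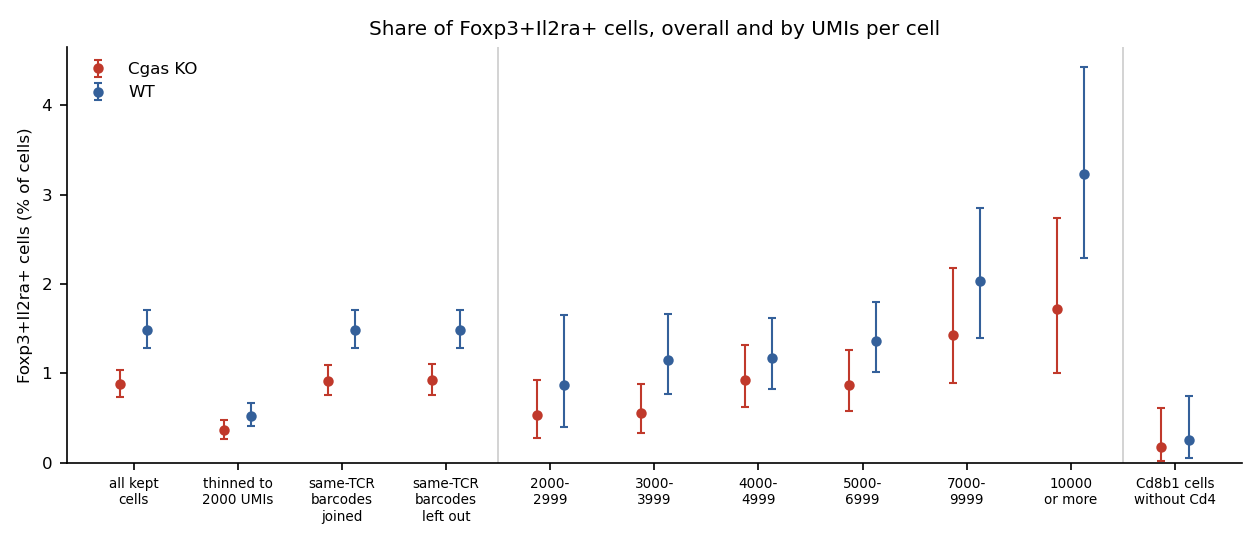
Share of cells with at least 1 Foxp3 and 1 Il2ra UMI (vertical axis, % of cells) in Cgas KO (red, left of each pair) and WT (blue), with exact 95% binomial intervals; left, all kept cells under 4 treatments, middle, by UMIs per cell, right, Cd8b1 cells without Cd4. The Cgas KO point is the lower one in every pair, though the Cd8b1 pair rests on 2 and 3 cells. The 2 libraries' intervals do not overlap for all kept cells (0.876% and 1.49%), and they overlap after thinning and in each depth range.

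Cells with only 1 of the genes were also less frequent in Cgas KO. Foxp3 without Il2ra was seen in 252 Cgas KO cells (1.75%) and 322 WT cells (2.49%), a ratio of 0.704 (0.594 to 0.832). Il2ra without Foxp3 was seen in 368 cells (2.56%) and 417 cells (3.23%), a ratio of 0.793 (0.688 to 0.915). After thinning, Foxp3 without Il2ra was seen in 1.02% of Cgas KO and 1.66% of WT cells (ratio 0.618, 0.497 to 0.765), and Il2ra without Foxp3 in 1.52% and 1.96% (ratio 0.772, 0.641 to 0.928). The 3 classes overlapped in their intervals both ways, their order changed with thinning, and the difference between classes was not tested. Detection of the genes went together: Il2ra was found in 33.3% of Cgas KO and 37.4% of WT cells with Foxp3, against 2.63% and 3.36% of cells without Foxp3.

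Membership rests on few molecules. In Cgas KO 18 of 126 members had exactly 1 UMI of each gene, and in WT 30 of 192. Foxp3 stood at 1 UMI in 54 Cgas KO and 69 WT members and reached 10 and 9 UMIs at most; Il2ra stood at 1 UMI in 31 and 62 members and reached 16 and 22. Just outside the rule were 59 Cgas KO and 97 WT cells with at least 2 Foxp3 UMIs and no Il2ra, and 133 and 160 cells with at least 2 Il2ra UMIs and no Foxp3. At the depth minimum, 4 members in each library lay between 2000 and 2500 UMIs. Foxp3 in members had a level of 358 CPM in Cgas KO and 359 CPM in WT, and Il2ra had 588 CPM in Cgas KO and 462 CPM in WT. CPM is the gene's share of all UMIs of the pooled class, scaled to 1000000. In free RNA, barcodes with at least 20 and under 200 UMIs, Foxp3 was at 11.7 CPM in Cgas KO and 14.1 CPM in WT, and Il2ra at 29.2 CPM in Cgas KO and 31.5 CPM in WT.

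The label of Treg cells was set against genes that the rule did not use. Their list was chosen with earlier results of these data known. Of 20 Treg genes, 18 had at least 20 UMIs in members, and 17 of these 18 were at least 1.5-fold higher in members than in other cells in both libraries. Over all 8433 genes with that many UMIs, 5.66% were at least 1.5-fold higher and 3.83% at least 1.5-fold lower. T-lineage genes were present. Before thinning, Cd3e, a chain of the TCR complex, had a UMI in 95.2% of Cgas KO and 97.9% of WT members. Cd4 was found in 61.1% and 66.1%. After thinning, both were less frequent in members than in cells with neither Foxp3 nor Il2ra. Cd3e was found in 81.7% of Cgas KO and 83.3% of WT members, against 88.4% and 88.8%. Cd4 was found in 24.6% and 29.7%, against 39.9% and 39.1%. Markers of conventional CD4 cells summed to 408 and 426 CPM in members, against 746 and 742 CPM in other cells. Of these 4 markers, 3 were at least 1.5-fold lower in members in both libraries. The name of Treg cells was kept with these values, which are no independent check of it. Since genes were measured in the cells that the rule selected, the comparisons with other cells below are descriptions without a test.

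Markers of other cell types were low in members, with exceptions. Dendritic and myeloid markers summed to 55.0 CPM in Cgas KO members and 46.5 CPM in WT members, against 77.4 and 91.2 CPM in other cells. Of the 9 markers in that list, H2-Aa, Itgax, Xcr1 and Ccl22 were at 0 in all members. With 3 cells taken as the limit that a count of 0 allows, 0 of 126 Cgas KO and 0 of 192 WT members allow shares of up to 2.38% and 1.56% of cells with a UMI. After thinning, H2-Aa was found in 0.315% and 0.242% of cells with neither Foxp3 nor Il2ra, below those limits. B cell markers summed to 63.9 and 56.9 CPM in members, with Ms4a1 and Igkc at 0, and 5 erythroid markers to 5.11 and 2.95 CPM, against 72.3 and 3.22 CPM in other cells. Gamma-delta T and NK markers summed to 2.56 and 2.22 CPM, and of the thymic epithelial markers Epcam alone was detected, at 10.2 and 10.3 CPM. The whole thymic epithelial list summed to 6.62 and 6.26 CPM in other cells, and Epcam was at least 1.5-fold higher in members in both libraries. The type 2 innate lymphoid list was higher in members (242 and 182 CPM, against 116 and 117 CPM) through Gata3, Rora and Areg, which T cells also express, while its defining genes Il1rl1 and Il13 were at 0. CD8 lineage markers summed to 173 and 218 CPM in members, against 442 and 484 CPM in other cells. Of the 4 markers, 3 were at least 1.5-fold lower in members in both libraries and 1 was higher. A Cd8a or Cd8b1 UMI was present in 32 of 126 Cgas KO and 48 of 192 WT members (25.4% and 25%). Markers of the CD4 CD8 double-positive stage summed to 85.7 and 134 CPM, against 266 and 283 CPM. Doublets were not removed; the part of these markers in the results was not tested, and values without the cells that carried a Cd8a or Cd8b1 UMI are given where they differ.

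Members differed from other cells in many genes and in much the same way in the 2 libraries. Genes entered where the unweighted mean of the member and other-cell levels was at least 50 CPM in each library. A gene high in members alone could thus enter. Of these 3344 genes, 165 (4.93%) were at least 1.5-fold higher in members in both libraries, with Foxp3 and Il2ra among them. At least 1.5-fold lower in both were 94 (2.81%), on log2 ratios with 1 CPM added. In Cgas KO alone the counts were 209 higher (6.25%) and 250 lower (7.48%), and in WT alone 186 higher (5.56%) and 136 lower (4.07%). The genes counted in both were 78.9% of the Cgas KO and 88.7% of the WT higher genes, and 37.6% and 69.1% of the lower genes. No gene passed the fold in opposite directions. The median gene stood at a log2 ratio of -0.09 in each library. Scaling by median of ratios moved that median to 0.01 in both and gave 208 higher and 58 lower genes.

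Genes of the IL-2 receptor axis were among those that led the higher side. Il2rb, the shared beta chain of the IL-2 and IL-15 receptors, was at 456 CPM in Cgas KO members and 493 CPM in WT members, against 31.7 and 41.5 CPM in other cells. Its log2 ratios were 3.81 in Cgas KO and 3.54 in WT. Cish, a STAT5 target that dampens cytokine signalling, was at 192 and 174 CPM in members, against 23.9 and 29.0 CPM. Pim1, a kinase gene induced by STAT5, stood at 196 and 150 CPM, against 55.8 and 49.9 CPM. Of 15 measured genes of the IL-2 and STAT5 list, 8 were higher in members in both libraries and 1 was lower. The lower one was Il7r, whose product receives the survival cytokine IL-7, at 146 and 158 CPM in members, against 268 and 289 CPM.

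Coinhibitory and costimulatory receptors followed. Ctla4, the receptor through which Treg cells restrain antigen-presenting cells, was at 292 CPM in Cgas KO members and 306 CPM in WT members, against 46.1 and 43.1 CPM in other cells. Tnfrsf4, which encodes the costimulatory receptor OX40, was at 931 and 665 CPM, against 148 and 153 CPM. Its relative Tnfrsf18, encoding GITR, stood at 606 and 490 CPM, against 136 and 138 CPM. In the list of TNF receptor costimulators 7 of 11 measured genes were higher in both libraries and 1 was lower, Cd40lg, the helper ligand CD154, at 47.3 and 39.2 CPM against 138 and 117 CPM. Of 9 measured genes of the CD28 family and coinhibitory list, 3 were higher and none lower; Icos, a costimulator of that family, stood at 58.8 and 76.8 CPM, against 104 and 94.2 CPM.

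Transcription factors and further genes known from Treg cells were among the leaders. Ikzf2, the gene of Helios, was at 1088 CPM in Cgas KO members and 863 CPM in WT members, against 250.1 and 235 CPM in other cells. Ikzf4, encoding Eos, a corepressor partner of FOXP3, stood at 142 and 139 CPM, against 24.1 and 25.9 CPM. Hopx, a homeodomain-only protein gene, was at 147 and 189 CPM, against 5.29 and 9.23 CPM. The largest ratio outside the rule belonged to Coro2a, a coronin of the actin cytoskeleton, at 153 and 142 CPM in members, against 2.86 and 4.60 CPM (log2 ratios of 5.32 and 4.67). Lrrc32, encoding the TGF-beta docking receptor GARP, stood at 89.5 and 56.1 CPM, against 2.45 and 3.14 CPM. Nrp1, a semaphorin co-receptor of thymic Treg cells, was at 49.9 and 76.1 CPM, against 7.99 and 8.12 CPM. The remaining named leaders were Mbnl3, Ecm1, Dusp4, Rgs1, Tbc1d4, Gpr83, Lta and Tnfsf8, with log2 ratios between 2.10 and 3.61 in the 2 libraries. They encode an RNA-binding protein, a secreted matrix protein, a MAP kinase phosphatase, a regulator of G protein signalling, a Rab GTPase activator, a Treg-associated G protein-coupled receptor, lymphotoxin alpha and the CD30 ligand. In the suppressor list, only 5 of 12 genes were measured and 3 of these were higher; Il10, Il12a and Gzmb, effector genes of activated Treg cells, were at 0 in members.

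**Figure D2:**
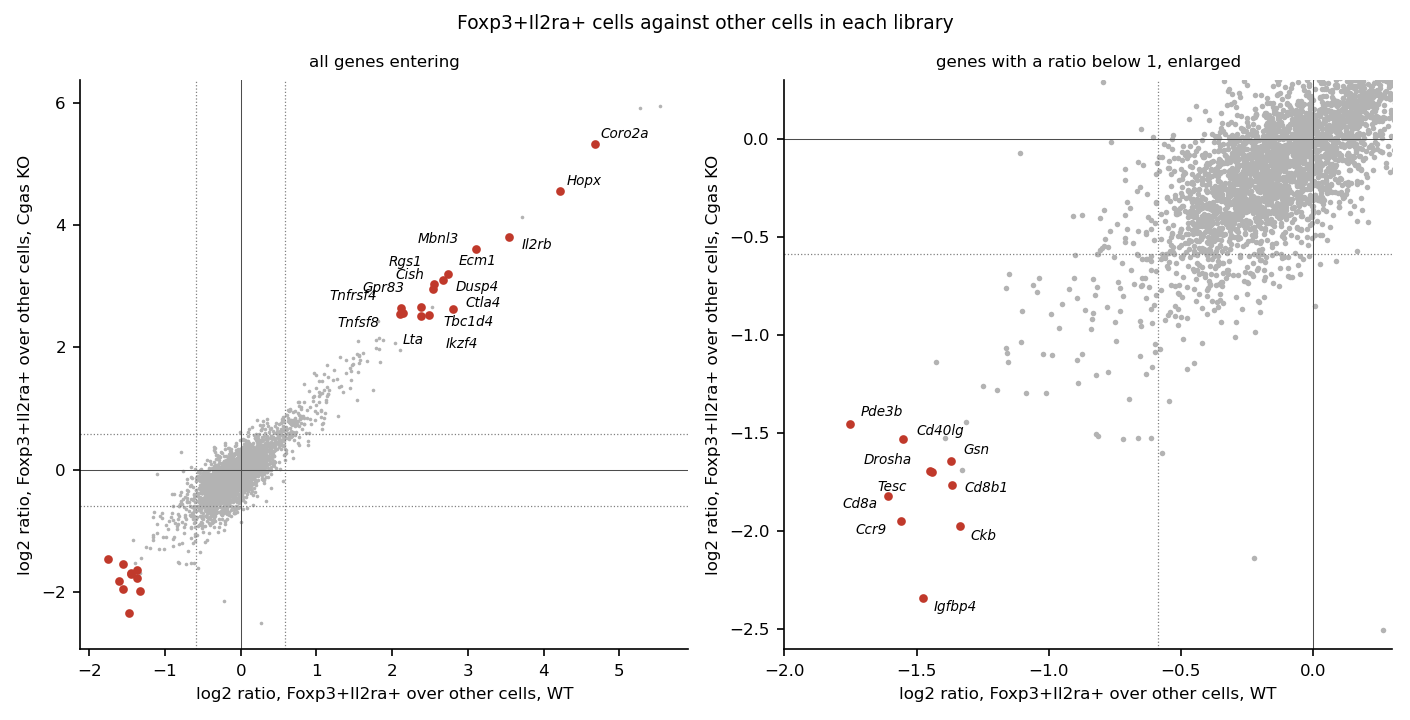
Log2 ratio of pooled CPM in Foxp3+Il2ra+ cells over other cells, in Cgas KO (vertical) and WT (horizontal), 1 point per gene of 3344, with dotted lines at 1.5-fold; the right panel enlarges the genes below 1. The 15 named higher and 10 named lower genes (red) lie past the dotted lines in both libraries, and the 2 unlabelled points at the far upper right are Foxp3 and Il2ra, which chose the cells.

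The lower side held genes of less mature thymocytes and of the CD8 lineage. Ccr9, a chemokine receptor of young thymocytes, was at 62.7 CPM in Cgas KO members and 80.5 CPM in WT members, against 245 and 239 CPM in other cells. Satb1, a chromatin organiser of developing T cells, was at 806 and 889 CPM, against 1981 and 1790.5 CPM, and Tcf7, encoding TCF-1, at 414 and 397 CPM, against 994 and 947 CPM. Cd24a, a surface marker lost on maturation, stood at 30.7 and 27.3 CPM, against 75.6 and 68.5 CPM. In the list of the early single-positive stage 11 of 16 measured genes were lower in both libraries and none was higher. Cd8a, at 47.3 and 60.6 CPM against 169 and 186 CPM, and Cd8b1 were among them.

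Igfbp4, Pde3b, Drosha, Tesc, Gsn and Ckb completed the named lower genes, with log2 ratios between -2.34 and -1.34. They encode an insulin-like growth factor binding protein, a phosphodiesterase, a microRNA-processing nuclease, tescalcin, the actin-severing protein gelsolin and creatine kinase B. The cell cycle list was also lower on balance, with 10 of 19 measured genes lower and 1 higher, the histone variant gene H2az1 at 1086 and 1047 CPM against 643 and 584 CPM. Top2a, a topoisomerase of dividing cells, stood at 61.4 and 52.4 CPM in members, against 136 and 118 CPM. At equal depth a Top2a UMI was found in 4.76% of Cgas KO and 4.17% of WT members, against 6.76% and 5.72% of cells with neither Foxp3 nor Il2ra. Mki67, a proliferation marker, was found in 1.59% and 2.08% of members, against 4.86% and 3.89%, on 2 and 4 members only. Before thinning, either gene was found in 12.7% and 9.90% of members, against 12.9% and 11.7% of cells with neither.

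Egress and survival genes were higher in part. In the list of late maturation and egress 6 of 20 genes were higher and 1 was lower. S1pr1, the receptor that guides cells out of the thymus, stood at 277 CPM in Cgas KO members and 289 CPM in WT members, against 154 and 134 CPM in other cells. Ccr7, on whose protein the cells were sorted, was at 687 and 813 CPM, against 721 and 613 CPM, so its log2 ratio was -0.07 in Cgas KO and 0.41 in WT. Of 12 measured BCL-2 family genes 4 were higher and none lower, and the survival gene Bcl2 stood at 800.5 and 657 CPM, against 429 and 432 CPM. The list of recirculating and effector Treg genes had 9 of 20 members measured, 4 of them higher. Ccr6, a chemokine receptor of recirculating Treg cells, was at 34.5 and 38.4 CPM, against 1.24 and 1.89 CPM, while Klrg1 and Il1rl1, markers of effector Treg cells, were at 0.

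The remaining lists moved in smaller part. NF-kappaB subunits and targets had 6 of 14 genes higher, among them Rel, the c-Rel subunit, at 235 CPM in Cgas KO members and 208 CPM in WT members, against 109 and 101 CPM. Of the TCR-induced genes 4 of 18 were higher; Myc, the growth regulator, stood at 187 and 136 CPM, against 62.4 and 63.0 CPM. Nr4a1, an immediate readout of TCR signalling, was at 413 and 327 CPM in members, against 416 and 398 CPM, and so did not separate members from other cells. Of 30 measured interferon-stimulated genes 4 were higher, led by Ifi27l2a at 1976 and 1664 CPM, against 818 and 809 CPM. Samhd1, a dNTP hydrolase, at 421 and 477 CPM against 228 and 271 CPM, and Sting1, the adaptor downstream of cGAS, at 107 and 103 CPM against 59.0 and 66.0 CPM, were the 2 higher genes of the 9 measured in the cGAS-STING list. Of 23 regulators of the Foxp3 locus 1 was higher and 4 were lower, of 18 heat-shock and immediate early genes 1 was higher and 2 were lower, of 8 Ifi200 family genes 2 were higher, and of 13 CTCF and cohesin genes none passed the fold in both libraries.

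Cells with only Foxp3 or only Il2ra differed from members and from each other. Il2rb stood at 143 CPM in Cgas KO and 151 CPM in WT cells with Foxp3 only, and at 109 and 130 CPM in cells with Il2ra only, all below the members. Tnfrsf4 was lower with Foxp3 only (274 and 254 CPM) than with Il2ra only (699 and 671 CPM), where the WT value was level with that of WT members (665 CPM). Ikzf2 stood at 806 and 624 CPM with Foxp3 only and at 952 and 842 CPM with Il2ra only. The maturation genes separated the classes further. After thinning to 2000 UMIs, Cd24a was found in 3.97% of Cgas KO and 4.17% of WT members, in 7.54% and 3.42% of cells with Foxp3 only, and in 23.1% and 17.3% of cells with Il2ra only. S1pr1 was found in 37.3% and 46.4% of members, in 46.0% and 42.5% with Foxp3 only, and in 20.1% and 18.2% with Il2ra only. Nr4a1 was found in 37.3% and 29.2% of members, 34.1% and 27.6% with Foxp3 only, and 55.2% and 49.9% with Il2ra only, so it was most frequent where S1pr1 was least frequent. Before thinning, members showed Cd24a in 11.1% and 10.4%, S1pr1 in 68.3% and 79.2%, and Nr4a1 in 54.0% and 51.6% of cells.

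**Figure D3:**
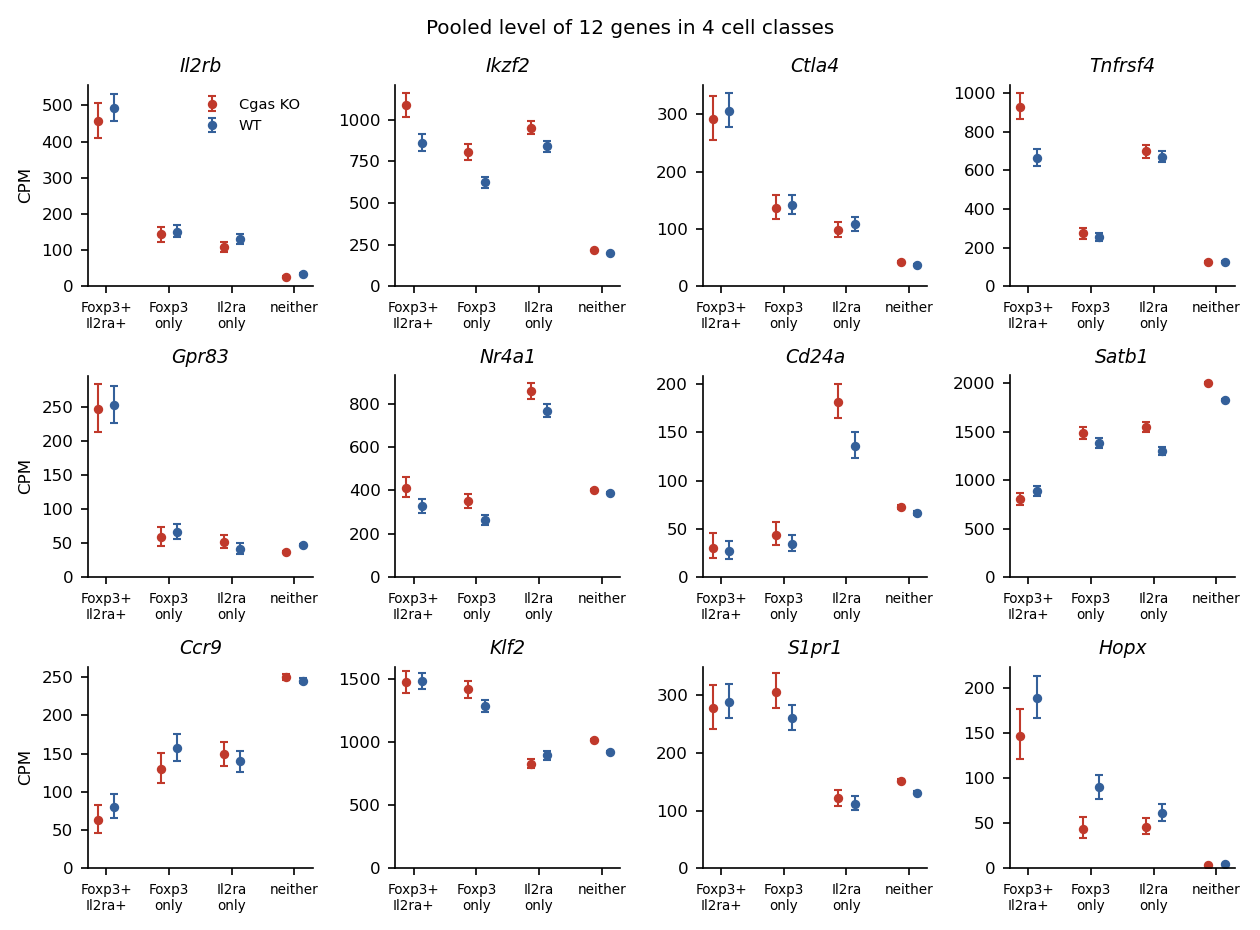
Pooled level (vertical axis, CPM) of 12 genes in Foxp3+Il2ra+ cells, cells with Foxp3 only, cells with Il2ra only and cells with neither, in Cgas KO (red, left of each pair) and WT (blue), with exact 95% Poisson intervals. Il2rb, Ctla4, Gpr83 and Hopx are highest in Foxp3+Il2ra+ cells and Satb1 and Ccr9 lowest there, while Nr4a1 and Cd24a are highest in cells with Il2ra only.

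Members varied among themselves. At equal depth of 2000 UMIs the variance of a gene's count over its mean, which is 1 for pure counting noise, had a median of 1.07 in Cgas KO and 1.06 in WT over 2987 genes, and its 95th percentile was 1.78 and 1.58. Ikzf2 stood at 5.40 in Cgas KO and 2.88 in WT, and the 10% of members richest in it held 40.4% and 38.9% of its UMIs. Helios transcripts were found in 73.8% of Cgas KO and 63.0% of WT members, against 17.2% and 15.3% of cells with neither gene. Nr4a1 was more concentrated, with 53.7% and 69.6% of its UMIs in the richest 10% of members (variance over mean of 2.73 and 4.41). Ccr7 varied by 2.61 in Cgas KO and 4.45 in WT and was found in 52.4% of Cgas KO and 70.3% of WT members (ratio 0.745, 0.546 to 1.007), against 61.4% and 55.6% of cells with neither. Klf2, the regulator of S1pr1, was found in 82.5% and 80.2% of members. The other genes that varied most were Cmss1, Tmsb4x, Malat1, Hspa1b, Junb, Tmsb10, Tuba1b and Eef1a1, which are abundant, stress or cytoskeletal genes. Ccr6 was found in 6 Cgas KO and 10 WT members (4.76% and 5.21%), against 0.161% and 0.133% of cells with neither gene.

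The targeted gene could not be checked in members. Cgas gave 3 UMIs in Cgas KO members (3.84 CPM) and 5 UMIs in WT members (3.69 CPM), against 2.91 CPM in Cgas KO and 4.51 CPM in WT other cells, and a 3′ tag need not lie in the deleted part. The genotypes are therefore taken from the labels.

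Within members, Cgas KO and WT were close for most genes. Of 3617 genes with at least 100 UMIs in members of both libraries together, 50 (1.38%) were higher in Cgas KO by 1.5-fold or more and 68 (1.88%) were lower by that fold. The same genes in other cells, with far more UMIs behind each value, gave 7 higher (0.194%) and 12 lower (0.332%). Of the 118 genes past the fold in members, 12 passed it the same way in other cells and 0 the opposite way. Counts depended on depth: with each cell thinned to 2000 UMIs, 19 genes were higher and 18 lower. Members totalled 782043 UMIs in Cgas KO and 1353720 in WT, so a gene at the minimum had about 100 UMIs between them and its ratio has a wide interval.

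The 3 highest ratios were also above 1.5 in other cells. Hdac9, a class IIa histone deacetylase, was at 116 CPM in Cgas KO members and 37.7 CPM in WT members (ratio 3.09, exact conditional interval 2.17 to 4.44). These UMIs came from 24 and 23 cells, with 18.7% and 15.7% of them in the richest cell. Slamf6, a receptor of the SLAM family, was at 118 and 44.3 CPM (ratio 2.65, 1.897 to 3.74), and its ratio in other cells was 2.61. Ifi209, of the Ifi200 family of DNA sensors, was at 136 and 62.1 CPM (2.18, 1.63 to 2.94), and its ratio in other cells was 1.69. Odc1, the first enzyme of polyamine synthesis, was at 69.0 and 39.2 CPM, with a ratio of 1.76 in members and 1.62 in other cells.

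A further 6 genes on the higher side stood near 1 in other cells, with ratios there between 0.901 and 1.10. They were Axin1, a scaffold of the beta-catenin destruction complex, at 67.8 CPM in Cgas KO members and 35.5 CPM in WT members, Suclg2, Rhob, Dnajb4, Csnk1g1 and Cstf3. Their log2 ratios in members were between 0.83 and 0.92. Their intervals excluded 1, but the genes were picked for high ratios, so the intervals are no check of a difference. Suclg2, a subunit of succinyl-CoA ligase, stood at a log2 ratio of -0.054 when cells were thinned, and Dnajb4, a co-chaperone, at 0.47. Rhob, a small GTPase, stood at 0.36 without members that carried a Cd8a or Cd8b1 UMI and at 0.53 without those that carried Mki67 or Top2a, below 1.5-fold. Whether these genes differ between genotypes in members more than in other cells was not tested.

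On the lower side, Ifi214, another Ifi200 family gene, had the lowest ratio, at 26.9 CPM in Cgas KO members and 78.3 CPM in WT members (0.343, 0.204 to 0.551), and its ratio in other cells was 0.534. Klhdc2, a substrate receptor of a ubiquitin ligase, was at 43.5 and 87.9 CPM, with a ratio of 0.495 in members and 0.504 in other cells. Ifit1, an interferon-induced RNA-binding protein, was at 43.5 and 85.7 CPM (0.507, 0.336 to 0.749), with a ratio of 0.837 in other cells. Igfbp4 was at 75.4 and 142 CPM (0.532, 0.390 to 0.716), against a ratio of 0.975 in other cells. The other named genes were Rab6a, Taf3, Sdhc, Slco3a1, Fbxl6 and Akt2, with log2 ratios between -1.02 and -0.86 in members and between -0.25 and 0.01 in other cells. They encode a Golgi trafficking GTPase, a subunit of TFIID, a subunit of succinate dehydrogenase, an organic anion transporter, an F-box protein and a kinase of the insulin pathway. Thinning brought Akt2 to -0.13, Slco3a1 to -0.46, Igfbp4 to -0.56 and Klhdc2 to -0.56 on the log2 scale, all below 1.5-fold, and Slco3a1 stood at -0.27 without members that carried a Cd8a or Cd8b1 UMI.

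**Figure D4:**
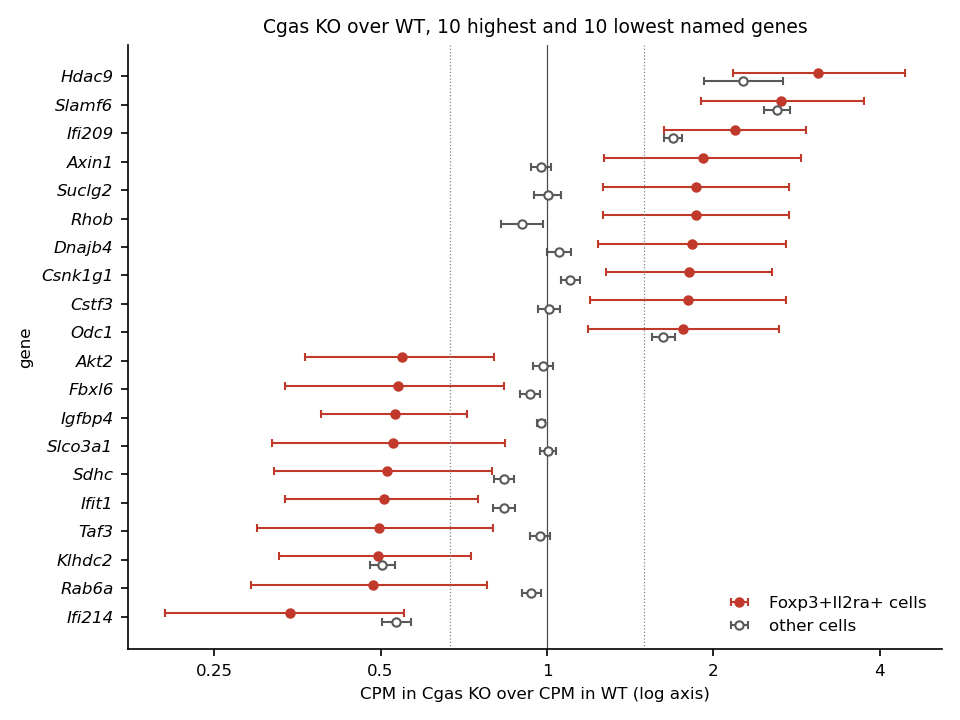
Ratio of pooled CPM in Cgas KO over WT (horizontal, log axis) in Foxp3+Il2ra+ cells (red) and in other cells (open), with exact conditional 95% intervals, for the 10 highest and 10 lowest named genes; dotted lines mark 1.5-fold. Hdac9, Slamf6, Ifi209, Odc1, Klhdc2 and Ifi214 lie past a dotted line in both populations, and the other 14 genes stay inside the dotted lines in other cells.

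The Treg genes themselves differed little between genotypes in members. Of 18 measured Treg genes outside the rule, 1 exceeded the fold upward in Cgas KO and 1 downward, and the median log2 ratio was 0.05. Over all 8433 genes with at least 20 UMIs, 5.80% were higher and 7.73% lower, with a median of -0.02, and in other cells 0.202% and 0.403%. The higher gene was Lrrc32 (89.5 CPM in Cgas KO, 56.1 CPM in WT; ratio 1.59, 1.14 to 2.24) and the lower one Nrp1 (49.9 and 76.1 CPM; 0.655, 0.441 to 0.956). Ikzf2 was 1.26 times as high in Cgas KO members as in WT members (1.15 to 1.38), and Tnfrsf4 1.40 times (1.27 to 1.55), both with intervals above 1 but under the fold. These intervals take each UMI as independent and are too narrow where cells vary. For Ikzf2 the variance over mean among members was 5.40 in Cgas KO and 2.88 in WT at equal depth. Ctla4 had a ratio of 0.953 (0.807 to 1.12), Il2rb of 0.925 (0.811 to 1.05) and Gpr83 of 0.974 (0.812 to 1.17). Il2ra had a ratio of 1.27 (1.13 to 1.44) and Foxp3 of 0.997 (0.858 to 1.16). Both belong to the rule, which required a UMI of each in every member, so their ratios and intervals are a description only.

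Costimulatory, cytokine and signalling lists gave few genes past the fold, and several counts were near the shares over all genes (5.80% higher and 7.73% lower). None of 11 TNF receptor costimulators and none of 15 IL-2 and STAT5 genes passed it, with median log2 ratios of 0.19 (0.027 without members that carried Mki67 or Top2a) and -0.03. Of 9 CD28 family genes 2 were higher (median 0.24, or -0.0019 over members of at least 100 UMIs). Of 5 suppressor genes 1 was higher, Lrrc32 again (median 0.36, or 0.072 with thinned cells), and of 9 recirculating and effector Treg genes 1 was lower (median 0.08). Among 14 NF-kappaB genes 2 were higher (median 0.17), one of them Nfkbib, an inhibitor of NF-kappaB, at 70.3 CPM in Cgas KO members and 40.6 CPM in WT members (1.73, 1.17 to 2.56). Among 18 TCR-induced genes 1 was higher, the nuclear receptor gene Nr4a3 at 99.7 and 59.8 CPM (1.67, 1.21 to 2.30), and 1 was lower (median -0.07). Of 12 BCL-2 family genes 1 was higher, Bcl2l1, encoding the survival protein BCL-XL, at 63.9 and 36.9 CPM (1.73, 1.15 to 2.61; median 0.01). In other cells Nfkbib, Nr4a3 and Bcl2l1 had ratios of 0.985, 1.13 and 0.998.

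Lists tied to the study's title gave 2 genes past the fold. None of 13 CTCF and cohesin genes passed the fold; their median log2 ratio was -0.20 in members and 0.04 in other cells. Ctcf, the insulator protein that organises chromatin loops, was at 123 CPM in Cgas KO members and 151 CPM in WT members (0.815, 0.632 to 1.04), and Nipbl, the cohesin loader, at 243 and 312 CPM (0.778, 0.652 to 0.925). None of 23 regulators of the Foxp3 locus passed it (median 0.02). In the cGAS-STING list 2 of 9 genes were lower (median -0.22), where 7.73% of all genes were: Zbp1, a sensor of Z-form nucleic acid, at 81.8 and 133 CPM (0.615, 0.455 to 0.823), and Irf3, the transcription factor that STING activates, at 40.9 and 63.5 CPM (0.644, 0.415 to 0.977). Sting1 itself had a ratio of 1.05 (0.788 to 1.38).

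Of 30 interferon-stimulated genes, 7 were lower and 1 higher in Cgas KO members, where 7.73% of all genes were lower and 5.80% higher. Their median log2 ratio was -0.23 in members (-0.12 with thinned cells) and -0.15 in other cells, where none passed the fold. The median member was not lower in Cgas KO by the share of its UMIs in this list. That share had a median of 0.499% in Cgas KO (quartiles 0.309 and 0.587) and 0.458% in WT (0.326 and 0.687). Isg15, a ubiquitin-like modifier, was at 121 CPM in Cgas KO members and 192 CPM in WT members (0.632, 0.495 to 0.803), with a ratio of 0.953 in other cells. Slfn5, of the Schlafen family, was at 57.5 and 103 CPM (0.560, 0.391 to 0.789), and Irf7, the amplifier of interferon transcription, which did not reach the fold, at 118 and 169 CPM (0.695, 0.540 to 0.890). After thinning, Isg15 was found in 18.3% of Cgas KO and 23.4% of WT members, with a ratio of 0.779 (0.450 to 1.31). That interval included 1, so a difference in the share of members was not detectable at this depth. In the Ifi200 family, whose near-identical members can share reads and are uncertain for that reason, 4 of 8 genes were higher and 2 lower, with medians of 0.45 in members (0.17 with thinned cells) and 0.66 in other cells. Mndal, of that family, was at 290.3 and 186 CPM (1.56, 1.30 to 1.87).

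Maturation and proliferation lists gave few genes past the fold, where 7.73% of all genes were lower and 5.80% higher, and a count of 1 or 2 is near those shares. Of 20 late maturation genes 1 was lower in Cgas KO members (median -0.04), and Ccr7 had a ratio of 0.844 (0.760 to 0.937) in members and 1.18 in other cells. Of 16 early single-positive genes 3 were lower (median -0.09, or 0.15 without members that carried a Cd8a or Cd8b1 UMI), among them Themis, a regulator of TCR signalling in selection, at 184 CPM in Cgas KO members and 278 CPM in WT members (0.663, 0.543 to 0.805). Of 19 cell cycle genes 2 were lower (median 0.05), and none of 18 heat-shock and immediate early genes passed the fold (median -0.07). Hspa1b, an inducible HSP70 gene, was at 367 and 529 CPM in members (0.694, 0.603 to 0.797), with a ratio of 0.643 in other cells.

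TCR chains were recovered less often from members than from other cells in both libraries. At least 1 beta chain was found in 84.1% of Cgas KO and 84.4% of WT members, against 93.0% and 92.1% of other cells. Both chains were found in 89 of 126 Cgas KO members (70.6%, 61.9 to 78.4) and 139 of 192 WT members (72.4%, 65.5 to 78.6), against 83.8% and 83.3% of other cells. No contig at all was found for 15.9% and 15.1% of members, against 5.77% and 6.92%. Among members the genotypes differed by less than counting error here. The classes most like members shared part of this low recovery. At least 1 beta chain was found in 90.1% of Cgas KO and 87.9% of WT cells with Foxp3 only. With Il2ra only it was 87.8% and 83.5%, the WT value being below that of WT members. No contig was found for 8.73% and 12.1% of cells with Foxp3 only, and for 11.4% and 13.2% with Il2ra only. Contigs of members rested on medians of 11 UMIs per beta chain in each library, against 12 and 14 in other cells, and 5 and 4 UMIs per alpha chain, against 5 and 5.

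A second beta chain, a sign of doublets or of dual expression, was found in members and in the classes most like them. At least 2 productive beta chains were found in 15 of 106 Cgas KO members with a chain (14.2%, 8.14 to 22.3) and 31 of 162 WT members (19.1%, 13.4 to 26.0), against 10.3% and 9.65% of other cells; the Cgas KO interval included the level of other cells and the WT interval did not. Cells with Foxp3 only were at 17.2% in Cgas KO and 11.3% in WT, and cells with Il2ra only at 13.3% and 17.0%. Among members with a Cd8a or Cd8b1 UMI it was 6 of 26 (23.1%) and 11 of 35 (31.4%). At least 2 alpha chains were found in 13.5% and 22.1% of members, against 17.5% and 16.8%. The share of doublets among members was not tested.

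CDR3 length and segment use differed from other cells in some features of the WT library. The beta CDR3 averaged 13.9 ± 1.45 residues in Cgas KO members (SD over 121 chains) and 13.6 ± 1.42 in WT members (193 chains), against 13.9 in other cells of each library. TRAJ segments numbered 30 or below, which lie toward the 3′ part of the cluster joined in later rearrangements, made up 48.5% of alpha chains in Cgas KO members (38.4 to 58.7) and 58.5% in WT members (50.7 to 66.0), against 51.0% and 48.6% in other cells. The WT interval excluded the level of WT other cells and the Cgas KO interval included its own. Among members with a Cd8a or Cd8b1 UMI these segments made up 63.3% of alpha chains in Cgas KO and 75.6% in WT. Without those members the shares were 42.3% and 53.1%, the lowest among the alternatives, and the WT share was nearer to WT other cells. No interval was computed for the shares without those members. The commonest beta joining segment was TRBJ2-7, in 27 Cgas KO members (25.5%, 17.5 to 34.9) and 41 WT members (25.3%, 18.8 to 32.7), against 19.98% and 20.3%. TRBV3 was found in 13.2% and 10.5% of members, against 9.93% and 9.13%, TRBV1 in 9.43% and 8.64%, against 7.03% and 6.98%, and TRBJ1-3 in 7.55% (3.31 to 14.3) and 10.5% (6.23 to 16.3), against 6.003% and 5.69%. Of these beta segments, TRBJ1-3 in WT was the one whose interval excluded the other cells.

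Alpha V segments TRAV4D-4 and TRAV7D-2 were above other cells in each library by point value. TRAV4D-4 was found in 9 Cgas KO members (10.1%, 4.73 to 18.3) and 10 WT members (7.14%, 3.48 to 12.7), against 3.798% and 3.37% of other cells, and both intervals lay above those levels. TRAV7D-2 was found in 8.99% and 7.86%, against 4.69% and 4.61%, with intervals that included the other cells. TRAV6-6 went opposite ways, in 1 of 89 Cgas KO members (1.12%) and 12 of 140 WT members (8.57%), against 4.24% and 4.31%. TRAJ31 was found in 7.87% and 7.86%, against 7.40% and 6.69%, and TRAJ15 in 3.37% and 8.57%, against 3.76% and 4.34%. These segments were picked from all V and J segments because they were common in members or far from other cells, so their distances are a description without a test.

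**Figure D5:**
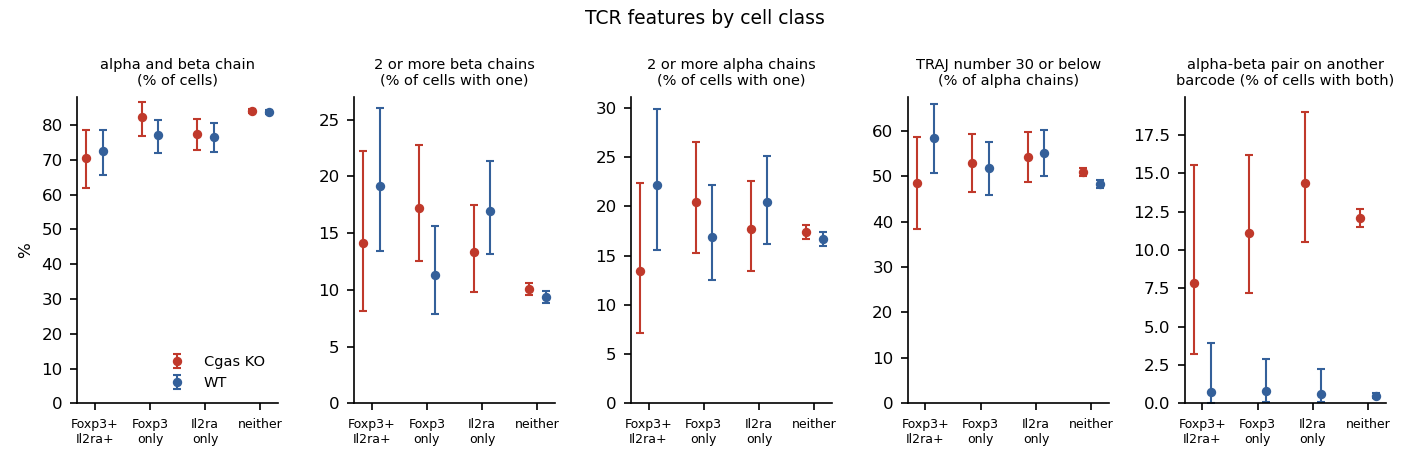
TCR features (vertical axes, %) in 4 cell classes for Cgas KO (red, left of each pair) and WT (blue), with exact 95% binomial intervals. Foxp3+Il2ra+ cells show the lowest recovery of both chains, at 70.6% in Cgas KO and 72.4% in WT, and the last panel shows the alpha-beta pairs found on another barcode, which are frequent in every Cgas KO class (7.87% in Foxp3+Il2ra+ cells) and rare in WT (0.719%).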

How the data were processed

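Single-cell expression was read from unfiltered matrices of UMI counts that the authors deposited. Per the file headers, Cell Ranger 8.0.1 made them. By contrast, the submitters' processing notes give version 7.0 of Cell Ranger, with mm10 and Seurat 5.1.0; the conflict could not be settled, so no coordinates are printed. The contig tables that the authors deposited list V and J segments, CDR3 and UMI counts per contig; all contigs are productive, full-length and of high confidence. Contigs were joined by barcode within a genotype.

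Barcodes with at least 2000 UMIs and 500 genes were kept; 3 Cgas KO and 1 WT barcodes were removed for too few genes and 0 for mitochondrial UMIs. No doublet caller was run. For each class of cells in a library, summed UMIs were scaled by the class total (CPM). Intervals are 95% exact Poisson, Clopper-Pearson and conditional intervals. Those on gene levels and their ratios take each UMI as independent and leave out variation among cells. Log2 ratios used 1 CPM added, ratios none. Cells were thinned with seed 7. The fold script was checked on simulated data. With 1 library per genotype no test was possible, and the number of mice behind each library is unknown.

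The members and all 18 gene lists were chosen with earlier results of these data known. Named genes were the 15 highest and 10 lowest by the weaker library against other cells, the 10 highest and 10 lowest between genotypes, the 12 most variable and up to 4 per list with at least 100 UMIs, leaving out TCR, immunoglobulin, ribosomal protein, mitochondrial and sex-linked genes and unnamed gene models; 13 genes were always named. Some genes that the rule names are not reported here. Alternatives comprised 18 planned settings and 2 added after seeing the data, which join or leave out barcodes of 1 TCR pair. edgeR 4.0.16 in R 4.3.3 gave TMM factors only; all else ran in Python 3.11.15 with pandas 2.3.3, scipy 1.17.1, numpy 2.4.6 and matplotlib 3.10.9.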

Additional observations from a re-analysis of the deposited data

How the results depend on the processing

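No paired analysis was possible because each genotype has 1 library. The share of Foxp3+Il2ra+ cells in Cgas KO over WT stayed between 0.571 and 0.687 in all 8 alternatives. Of the genes named against other cells, 321 of 321 values kept their direction and their side of the fold. Of those named between genotypes 231 of 240 did, 8 dropped below the fold, and Suclg2 turned to a log2 ratio of -0.054 with thinned cells. Both sets of genes were picked for extreme ratios, and every alternative drew on the same libraries, so these counts are no independent check.

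Counts of genes moved with depth, filters and fold. Between genotypes, against 50 higher and 68 lower genes, thinning gave 19 and 18, a minimum of 50 UMIs 171 and 243, a minimum of 200 UMIs 8 and 9, and a fold of 2 gave 5 and 7. Cells of at least 4000 UMIs gave 33 higher genes, a mean over cells 100, and leaving out cells with a Cd8a or Cd8b1 UMI 43 lower genes. Against other cells, a mean of at least 20 CPM gave 266 higher and 244 lower genes and a fold of 2 gave 73 and 23; median of ratios gave 58 lower genes. Of the list medians 138 of 162 values stayed within 0.1 of the reported one and 24 moved further. Examples with thinned cells are BCL-2 genes to 0.27, the cell cycle list to 0.23 and the Foxp3 locus list to 0.14, and for the CD28, IL-2, TCR-induced and early single-positive lists the median changed sign in at least 1 setting. Over all lists, 12 higher and 20 lower genes became 6 and 9 with members of at least 100 UMIs. Both chains were found in 81.3% of Cgas KO and 82.4% of WT members with exactly 1 beta chain, a setting that leaves out cells without a contig. With barcodes of 1 TCR pair left out, 46 genes were higher and 67 lower between genotypes, and 164 and 90 against other cells.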

Other observations

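Members with a Helios (Ikzf2) UMI at equal depth numbered 93 in Cgas KO and 121 in WT, and members without one 33 and 71. Tnfrsf9, encoding the costimulatory receptor 4-1BB, stood at 277 CPM in Cgas KO members with Ikzf2 and 82.4 CPM in those without, and at 238 and 176 CPM in WT. Tnfrsf4 stood at 1039 and 603 CPM in Cgas KO, and at 770.0 and 497 CPM in WT. Cd83, an activation marker, was at 104 and 41.2 CPM in Cgas KO, and at 81.7 and 42.2 CPM in WT. The chemokine receptors went in different directions: Ccr6 was at 44.2 CPM with Ikzf2 and 5.15 CPM without in Cgas KO, and at 51.7 and 17.3 CPM in WT, while Ccr9 was at 54.4 and 87.6 CPM in Cgas KO, and at 43.2 and 140.0 CPM in WT. These subsets were chosen after the variation of Ikzf2 among members was seen and carry no test. The Cgas KO subset without Ikzf2 held 33 cells, so low levels there, such as that of Ccr6, rest on very few UMIs. No intervals and no share over all genes are given for these contrasts.

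Members with an Nr4a1 UMI at equal depth, 47 in Cgas KO and 56 in WT, held more Ccr7 than the 79 and 136 without. Ccr7 stood at 880.2 CPM with Nr4a1 and 557 CPM without in Cgas KO, and at 1216 and 650.0 CPM in WT.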
